A study of Homo sapiens with 12 samples.

Results

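The genes described here are the 10 of the NRF2 and BACH1 heme response, among 58735 genes counted by RNA-seq: HMOX1, NQO1, SLC7A11, GCLM, GCLC, TXNRD1, SRXN1, BACH1, NFE2L2 and KEAP1. They were chosen by name for their known roles, with earlier results of these data known. All 10 had enough reads to be among the 20821 genes tested, HMOX1 only through its hemin libraries. The RNA came from K562, an established human erythroleukemia line driven by the BCR-ABL1 fusion kinase that nilotinib inhibits, and one that makes hemoglobin when it is given hemin, the oxidized form of heme. Cells were pretreated for 24 h with nilotinib (0.1 μM) or DMSO, and each was then either without hemin (mock) or with hemin (50 μM for 24 h). This gave 4 groups of 3 biological replicates: mock DMSO and hemin DMSO, and their counterparts mock nilotinib and hemin nilotinib. The library names carry 0 for mock and 24 for hemin, and the culture description can be read to place the mock harvest at the start of hemin treatment (0 h). A comparison of hemin with mock may thus also contain a difference in time and in the length of nilotinib exposure, which cannot be told apart from hemin. All libraries came from a single leukemia line, and the results hold for that line only.

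NRF2, encoded by NFE2L2, is a transcription factor of the cap'n'collar family that switches on genes for detoxification and for the supply of glutathione, thioredoxin and NADPH. KEAP1 holds NRF2 in the cytoplasm and hands it to a ubiquitin ligase for destruction, and oxidants or electrophiles that modify KEAP1 let NRF2 build up. BACH1 competes with NRF2 for the same sites, called antioxidant response elements (AREs), where it represses transcription as a partner of small MAF proteins. Heme binds BACH1 and leads to its export from the nucleus and degradation, so heme frees the target genes, of which heme oxygenase is the classic example. These steps act on proteins, and the measurements below are of mRNA.

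Letters that match the element both factors read were found in the promoters of 3 of the 10 genes. In RefSeq windows on GRCh38.p14, 8 of the 10 genes were matched with 13 start sites, while HMOX1 and SLC7A11 were not matched. The 250 bases before each start were searched on both strands for the ARE core, TGACNNNGC, and for the related element of the AP-1 and MAF proteins, TGANTCA. Of the 13 windows, 4 held the ARE core and 1 held TGANTCA, and of all 35116 RefSeq promoter windows 10.9% held the first and 6.57% the second. The match in GCLM lay 34 to 26 bases before its start, those in TXNRD1 at 99 to 91 and at 102 to 94 bases before a pair of alternative starts, and those in KEAP1 at 54 to 46 and at 31 to 23 bases. The match in BACH1 was TGANTCA, 48 to 42 bases before the start. These letters are shown in capitals within 10 bases on each side, on the strand of the gene, to show what a shared recognition sequence looks like in genes of this response. No match fitted both motifs, and whether either protein sat there was not measured.
GCLM, chr1:93909446-93909474, minus strand: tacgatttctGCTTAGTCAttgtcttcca
TXNRD1, chr12:104215670-104215698, plus strand: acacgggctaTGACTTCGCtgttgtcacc
TXNRD1, chr12:104286920-104286948, plus strand: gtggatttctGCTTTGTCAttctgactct
KEAP1, chr19:10502807-10502835, minus strand: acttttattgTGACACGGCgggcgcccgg
KEAP1, chr19:10502784-10502812, minus strand: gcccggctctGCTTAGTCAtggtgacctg
BACH1, chr21:29298864-29298890, plus strand: gcggaaggagTGAGTCAcctgaccgct
In GCLM, in the second TXNRD1 promoter and in the KEAP1 match nearest the start, the core is read on the opposite strand, so its letters appear reversed and complemented.

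Levels are CPM, that is counts per 1e+06 after edgeR's TMM factors were applied to the library totals, which ranged from 33457078 to 50506990 counts. At these depths 3 counts were worth 0.0540 to 0.0957 CPM. Changes are fitted log2 fold changes with their standard errors (SE), and adjusted p-values are from the quasi-likelihood test of edgeR, Benjamini-Hochberg adjusted over all 20821 genes. A gene was called at an adjusted p under 0.05. Hemin nilotinib replicate 1 stood apart: it had the lowest value of its group for 8 of the 10 genes, and without it the number of genes called between mock nilotinib and hemin nilotinib was 2793 in place of 1208. A change printed below that involves this library is also given without it, at least where leaving it out altered the call or moved the value by more than its standard error. All 9 K562 markers were detected, with a summed level of 1318 to 1738 CPM in mock DMSO, 3313 to 4706 in mock nilotinib, 1100 to 1183 in hemin DMSO and 3638 to 4234 in hemin nilotinib. Of 13 markers of other cell types, KRT5 and MS4A1 had at most 3 counts in every library, and the summed level was 417 to 500 CPM in mock DMSO, 154 to 192 in mock nilotinib, 607 to 900 in hemin DMSO and 120 to 151 in hemin nilotinib. Most of that sum was KRT8, a keratin, with means of 341, 111, 621 and 86.1 CPM. Both marker sums thus moved with nilotinib. They also moved with hemin in the DMSO arm, where the K562 sum fell and the other sum rose without overlap. Not every marker moved with its sum. HBG1, a globin gene, had means of 195 CPM in mock DMSO, 1639 in mock nilotinib, 349 in hemin DMSO and 1841 in hemin nilotinib. With hemin in the DMSO arm the means of HBG1, HBG2 and HBE1 rose while those of the other K562 markers fell. Those of EPCAM (63.1 to 51.7 CPM) and LYZ (31.0 to 24.7 CPM) fell while that of KRT8 rose. The part of these marker changes in the results below was not tested.

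Hemin without nilotinib changed all 10 genes: the 7 targets and NFE2L2 rose, and the repressor genes BACH1 and KEAP1 fell. The median log2 fold change of the 10 genes was 2.21, against -0.05 over all genes tested. Hemin moved much of the transcriptome, with 53.6% of genes called, 25.7% higher and 27.8% lower, so that being called is in itself common here. The libraries of the compared groups did not overlap for 9 of the 10 genes, against 62.7% of all genes. Of the genes called, 48.1% were higher, and 33.9% were with library totals in place of TMM factors, which moved the median of all genes by -0.24. In bulk RNA, a larger share of responding cells cannot be told apart from more RNA in each cell. In the presence of nilotinib, hemin raised 6 of the 10 genes and lowered none, with a median of 1.58 against 0.03 over all genes. In that comparison 5.8% of genes were called, 3.52% higher and 2.28% lower, and 7 of the 10 genes did not overlap between the groups against 23.3% of all genes. The share of calls that were higher was 60.7%, or 49.2% with library totals. No scaling turned the direction of any of the 10 genes in these or the nilotinib comparisons.

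Nilotinib under hemin changed 8 of the 10 genes, 6 lower and 2 higher, with a median log2 fold change of -0.87 against 0.02 over all genes. HMOX1, NQO1, SLC7A11, GCLM, TXNRD1 and NFE2L2 were lower, and BACH1 and KEAP1 were higher. The background was wide, with 64.2% of genes called, 32.4% higher and 31.8% lower, and 8 of the 10 genes did not overlap between the groups against 63.5% of all genes. Without hemin, nilotinib changed 4 of the 10 genes, with NQO1 and NFE2L2 lower, GCLC and BACH1 higher and a median of -0.34 against 0.00. There 42.5% of all genes were called, 20.7% higher and 21.8% lower, and 8 of the 10 genes did not overlap against 61% of all genes. The shares of 8 in 10 and of 4 in 10 called are not far from these backgrounds, so the counts alone set the 10 genes apart in neither nilotinib comparison. The difference between the hemin responses with and without nilotinib (the interaction) passed the threshold for 4 of the 10 genes, smaller for TXNRD1 and GCLC and more positive for BACH1 and KEAP1. Over all genes 30.1% passed, 17.1% with a positive and 13% with a negative difference, and the medians were -0.53 for the 10 genes and 0.06 for all genes. Of these calls 56.7% were positive, and the share was 73.3% with library totals and 46.3% with upper-quartile factors, which moved the median of all genes by 0.21 and -0.12. The 4 comparisons of group pairs share groups with each other, so their values are set side by side and are not independent.

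**Figure D1:**
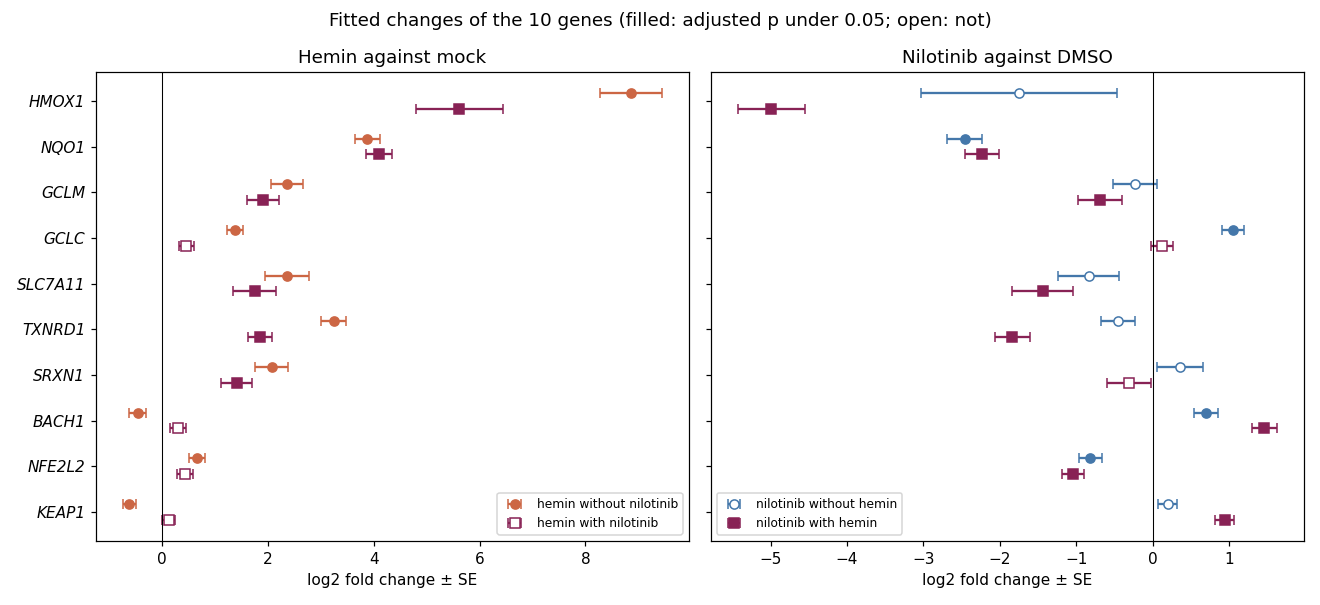
Log2 fold changes with their standard errors for the 10 genes, with hemin against mock on the left and nilotinib against DMSO on the right; filled symbols passed an adjusted p of 0.05 and open ones did not. The 7 target genes lie to the right of 0 in both hemin series, from 1.38 to 8.86 without nilotinib and from 0.46 to 5.62 with it, and under hemin nilotinib moved BACH1 (1.46) and KEAP1 (0.94) opposite to NFE2L2 (-1.04).

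HMOX1 (ENSG00000100292, chromosome 22 from 35380361 to 35394214) encodes heme oxygenase 1, which opens the heme ring and releases iron, carbon monoxide and biliverdin. It was almost silent without hemin, at 0.0540, 0.119 and 0.135 CPM in mock DMSO, which are 3, 5 and 7 counts, and at 0, 0.0583 and 0.0288 CPM in mock nilotinib. With hemin it reached 31.7, 71.9 and 41.2 CPM in hemin DMSO, and 0.402, 1.89 and 2.20 CPM in hemin nilotinib. Every hemin library was above every mock library, and every hemin DMSO library was above every hemin nilotinib library. Summed over the libraries of a group, hemin raised HMOX1 474-fold without nilotinib (4913 against 15 counts, 95% exact interval 287 to 847) and 56.1-fold with it (177 against 3 counts, interval 18.9 to 275). These intervals cover counting error only and not the spread between replicates. The fitted log2 fold changes were 8.86 (SE 0.58, edgeR adjusted p = 1.41e-08) and 5.62 (SE 0.82, edgeR adjusted p = 0.00154). The value with nilotinib was 6.05 without hemin nilotinib replicate 1, 5.02 without mock nilotinib replicate 1 and 6.48 without mock nilotinib replicate 2, and called each time. Both hemin responses were thus called, for a gene that passed the filter on reads only through its hemin libraries. Their difference, -3.24 on the log2 scale (SE 2), was not (edgeR adjusted p = 0.237). The difference ran from -3.82 to -2.33 with a library left out, and DESeq2 called it at an adjusted p of 0.0443. With 3 counts summed over mock nilotinib, the missed call does not show that the responses were alike. The SE of 2 is the size of that difference over the root of the F statistic. At such counts it is a rough figure.

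HMOX1 was the gene with the largest nilotinib effect of the 10 under hemin, 30.6-fold lower by counts (interval 26.3 to 35.8), with a log2 fold change of -4.99 (SE 0.44, edgeR adjusted p = 9.14e-08). Without hemin nilotinib replicate 1, the library with the lowest HMOX1, it was -4.54 and still called. Without hemin the ratio of mock nilotinib to mock DMSO was 0.276 from 3 against 15 counts (interval 0.0512 to 0.975), the libraries overlapped and the fit did not call it (edgeR adjusted p = 0.289). HMOX1 shares no exon sequence with another annotated gene. Its level in hemin DMSO was 20.1 CPM per kilobase, close to that of NFE2L2 and KEAP1 and far under that of TXNRD1 (287 CPM per kilobase).

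NQO1 (ENSG00000181019, chromosome 16 from 69706996 to 69726951) encodes the quinone reductase that is the usual readout of NRF2 activity. Its values were 31.1, 34.2 and 32.0 CPM in mock DMSO, 6.16, 6.68 and 4.79 in mock nilotinib, 612, 417 and 404 in hemin DMSO, and 63.4, 119 and 121 in hemin nilotinib. No 2 groups overlapped, and the order was hemin DMSO, hemin nilotinib, mock DMSO and mock nilotinib. Hemin raised NQO1 by 3.88 (SE 0.24, edgeR adjusted p = 9.11e-09) without nilotinib and by 4.11 (SE 0.25, edgeR adjusted p = 2.13e-07) with it, the latter 4.35 without hemin nilotinib replicate 1. On the log2 scale these responses differed by 0.22 (SE 0.31), which was not past the threshold (edgeR adjusted p = 0.623). Nilotinib lowered NQO1 in either state, with changes of -2.46 (SE 0.23, edgeR adjusted p = 4.89e-07) without hemin and -2.24 (SE 0.22, edgeR adjusted p = 3.26e-07) with it, the latter -1.98 without hemin nilotinib replicate 1. NQO1 was thus lower with nilotinib both with and without hemin, and its fold responses to hemin differed by less than the error of the difference. Of its exon bases 17.7% lie opposite AC092115.2, which had 0 counts in every library.

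**Figure D2:**
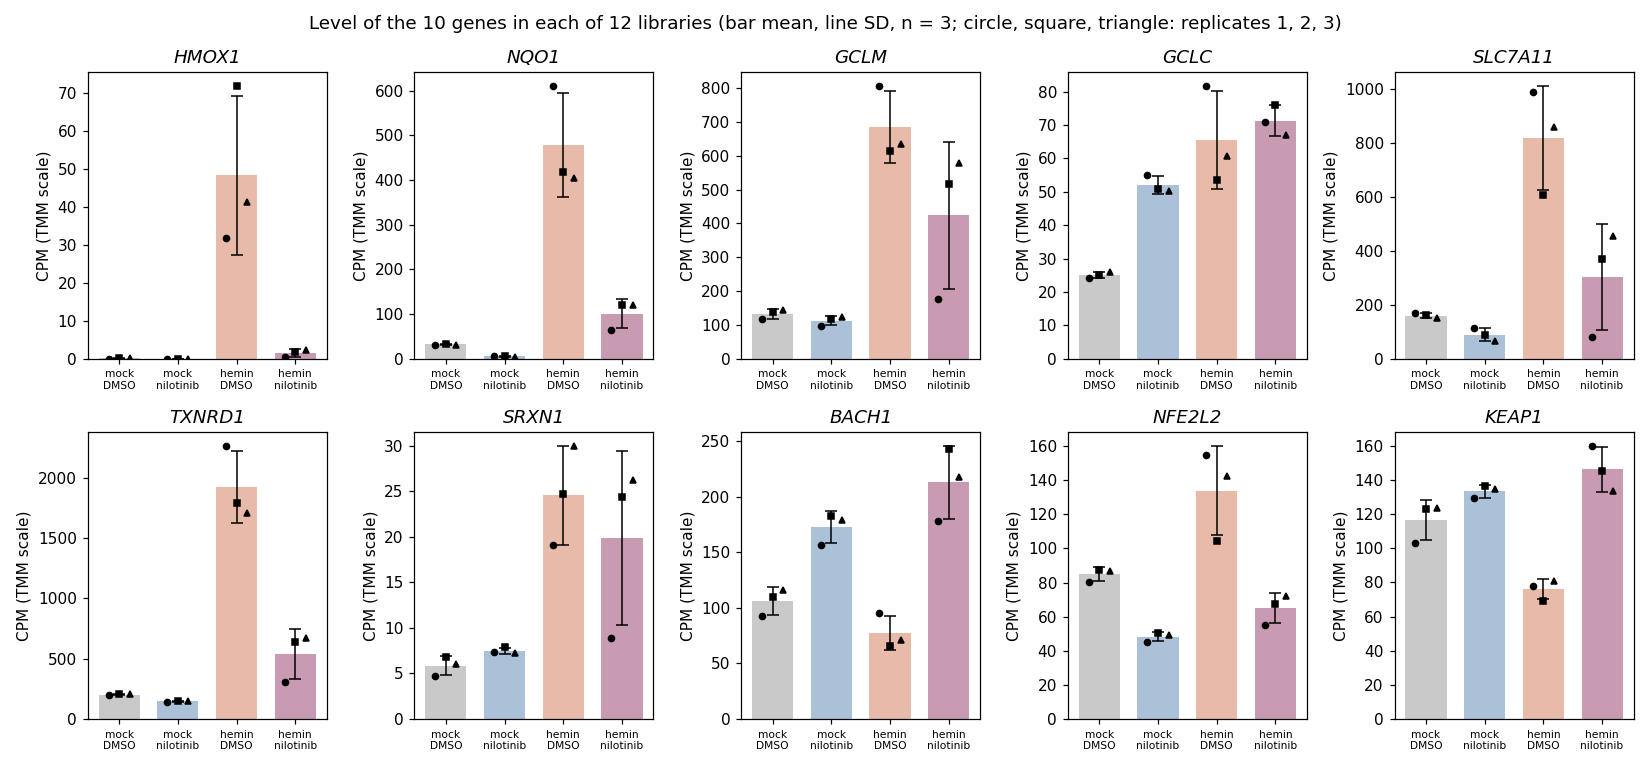
Level of each of the 10 genes in each of the 12 libraries, in CPM on a linear axis from 0, with bars for the group mean, lines for the SD (n = 3) and symbols for replicates 1, 2 and 3. HMOX1, NQO1, TXNRD1, SLC7A11 and GCLM have their highest libraries in hemin DMSO (up to 71.9, 612, 2265, 989 and 807 CPM), BACH1 and KEAP1 have theirs in hemin nilotinib (up to 243 and 160.1 CPM), and the circle of hemin nilotinib replicate 1 lies far under the other 2 for GCLM, SLC7A11, TXNRD1 and SRXN1.

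The glutathione genes were SLC7A11, GCLC and GCLM. SLC7A11 (ENSG00000151012, chromosome 4 from 138164097 to 138242349) encodes xCT, the transporter that brings in cystine, from which the cell makes the cysteine of glutathione. Its values were 168, 162 and 150.0 CPM in mock DMSO, 113, 89.3 and 65.8 in mock nilotinib, 989, 608 and 857 in hemin DMSO, and 80.7, 369 and 455 in hemin nilotinib. Hemin raised SLC7A11 without nilotinib by 2.36 (SE 0.41, edgeR adjusted p = 1.73e-04), with no overlap between the libraries. With nilotinib the change was 1.76 (SE 0.41, edgeR adjusted p = 0.0215), but hemin nilotinib replicate 1 lay within the mock nilotinib libraries, and it was 2.20 without that library. This call was lost in a fit that paired mock nilotinib with hemin nilotinib by replicate number (1.52, edgeR adjusted p = 0.137). It was also lost in the 6 libraries alone (adjusted p = 0.118) and without mock nilotinib replicate 2 or 3 or hemin nilotinib replicate 2 or 3, at adjusted p-values of 0.0912, 0.103, 0.0836 and 0.0628 by edgeR. Nilotinib lowered SLC7A11 under hemin, with a change of -1.44 (SE 0.40, edgeR adjusted p = 0.00510) that was -0.98 without hemin nilotinib replicate 1. In the mock state its change of -0.84 (SE 0.40) was not called (edgeR adjusted p = 0.102), although the libraries did not overlap and it was called in the 6 mock libraries alone. The antisense gene SLC7A11-AS1 lies opposite 8.97% of the SLC7A11 exon bases and moved in the same direction with hemin, by 2.36 and 2.12, and without strand in the counting the reads of the pair cannot be told apart.

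GCLC (ENSG00000001084, chromosome 6 from 53497341 to 53616970) and GCLM (ENSG00000023909, chromosome 1 from 93885205 to 93909456) encode the catalytic and the modifier subunit of glutamate-cysteine ligase, the first enzyme of glutathione synthesis. GCLC measured 24.2, 25.2 and 25.9 CPM in mock DMSO, 55.0, 50.8 and 50.1 in mock nilotinib, 81.8, 53.5 and 60.8 in hemin DMSO, and 70.9, 76.0 and 67.0 in hemin nilotinib. It was the only target of the 7 called higher with nilotinib without hemin, by 1.05 (SE 0.14, edgeR adjusted p = 2.32e-05). Hemin raised GCLC by 1.38 (SE 0.15, edgeR adjusted p = 1.26e-06) without nilotinib. With nilotinib its change of 0.46 (SE 0.14) missed the threshold (edgeR adjusted p = 0.0704), though the 3 hemin libraries lay above the 3 mock libraries and the paired fit of these 6 libraries called it (edgeR adjusted p = 0.0302). The difference between these responses, -0.93 (SE 0.20), was called (edgeR adjusted p = 0.00302). Under hemin the groups overlapped and nilotinib gave 0.12 (SE 0.14, edgeR adjusted p = 0.454), which became 0.32 and was called without hemin DMSO replicate 1 (edgeR adjusted p = 0.0405).

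GCLM measured 117, 137 and 145 CPM in mock DMSO, 96.6, 118 and 124 in mock nilotinib, 807, 613 and 636 in hemin DMSO, and 177, 517 and 578 in hemin nilotinib. The mock groups overlapped each other, and both hemin groups lay above both mock groups. Hemin raised GCLM by 2.37 (SE 0.30, edgeR adjusted p = 8.96e-06) without nilotinib and by 1.91 (SE 0.30, edgeR adjusted p = 0.00258) with it. The value with nilotinib was 2.28 without hemin nilotinib replicate 1. The nilotinib effect under hemin, -0.69 (SE 0.29, edgeR adjusted p = 0.0461), was the weakest call of the 10 genes in that comparison. It was -0.31 (edgeR adjusted p = 0.0948) without hemin nilotinib replicate 1, and the call was also lost without any of the hemin DMSO replicates 1, 2 and 3, at edgeR adjusted p-values of 0.149, 0.0607 and 0.0646. Within a library, the ratio of GCLM to GCLC, per kilobase, was 7.69, 8.69 and 8.90 in mock DMSO and 15.7, 18.3 and 16.7 in hemin DMSO. With nilotinib it was 2.80, 3.70 and 3.95 without hemin and 3.97, 10.9 and 13.8 with hemin. By this measure, which depends on the annotated lengths, the modifier mRNA was in excess of the catalytic mRNA in all 12 libraries. The mock nilotinib libraries had the lowest ratios of any group.

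The thioredoxin genes were TXNRD1 and SRXN1. TXNRD1 (ENSG00000198431, chromosome 12 from 104215779 to 104350305) encodes the cytosolic thioredoxin reductase, a selenoprotein that passes electrons from NADPH to thioredoxin. It measured 198, 204 and 207 CPM in mock DMSO, 144, 153 and 149 in mock nilotinib, 2265, 1793 and 1709 in hemin DMSO, and 304, 641 and 672 in hemin nilotinib. The 4 groups did not overlap, in the same order as for NQO1. Hemin raised TXNRD1 by 3.24 (SE 0.24, edgeR adjusted p = 3.59e-08) without nilotinib and by 1.86 (SE 0.23, edgeR adjusted p = 5.09e-04) with it, the latter 2.14 without hemin nilotinib replicate 1. The difference between these responses, -1.39 (SE 0.31, edgeR adjusted p = 0.00373), was called, and it was -1.09 and still called without hemin nilotinib replicate 1. Nilotinib lowered TXNRD1 under hemin, with a change of -1.83 (SE 0.23, edgeR adjusted p = 3.31e-06) that was -1.54 without that library. In the mock state the change was -0.45 (SE 0.22), with separate libraries but an adjusted p of 0.113 by edgeR, and it was called in the 6 mock libraries alone (edgeR adjusted p = 5.18e-04).

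SRXN1 (ENSG00000271303, chromosome 20 from 646615 to 653370) encodes sulfiredoxin, which repairs peroxiredoxins that peroxide has overoxidized. Its values were 4.73, 6.82 and 6.02 CPM in mock DMSO, 7.30, 7.88 and 7.27 in mock nilotinib, 19.1, 24.6 and 29.9 in hemin DMSO, and 8.94, 24.4 and 26.3 in hemin nilotinib. Hemin raised SRXN1 by 2.07 (SE 0.30, edgeR adjusted p = 3.42e-05) without nilotinib and by 1.41 (SE 0.30, edgeR adjusted p = 0.0144) with it, the latter 1.76 without hemin nilotinib replicate 1. The second call was lost in the 6 libraries alone (edgeR adjusted p = 0.0874) and without mock nilotinib replicate 2 or 3 or hemin nilotinib replicate 2 (edgeR adjusted p-values 0.0615, 0.0689 and 0.0722). It was the only target of the 7 whose nilotinib effect was called in neither state. The change was 0.36 (SE 0.30, edgeR adjusted p = 0.360) without hemin, where the libraries did not overlap. With hemin it was -0.30 (SE 0.29, edgeR adjusted p = 0.369), with overlapping libraries. The value with hemin turned to 0.06 without hemin nilotinib replicate 1. Of the SRXN1 exon bases 85.0% also belong to AL121758.1 on the same strand, which had means of 0.107 and 0.552 CPM in mock DMSO and hemin DMSO and of 0.127 and 0.931 CPM in mock nilotinib and hemin nilotinib. The SRXN1 level is therefore uncertain, because a counter can discard or split reads that fit both genes.

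**Figure D3:**
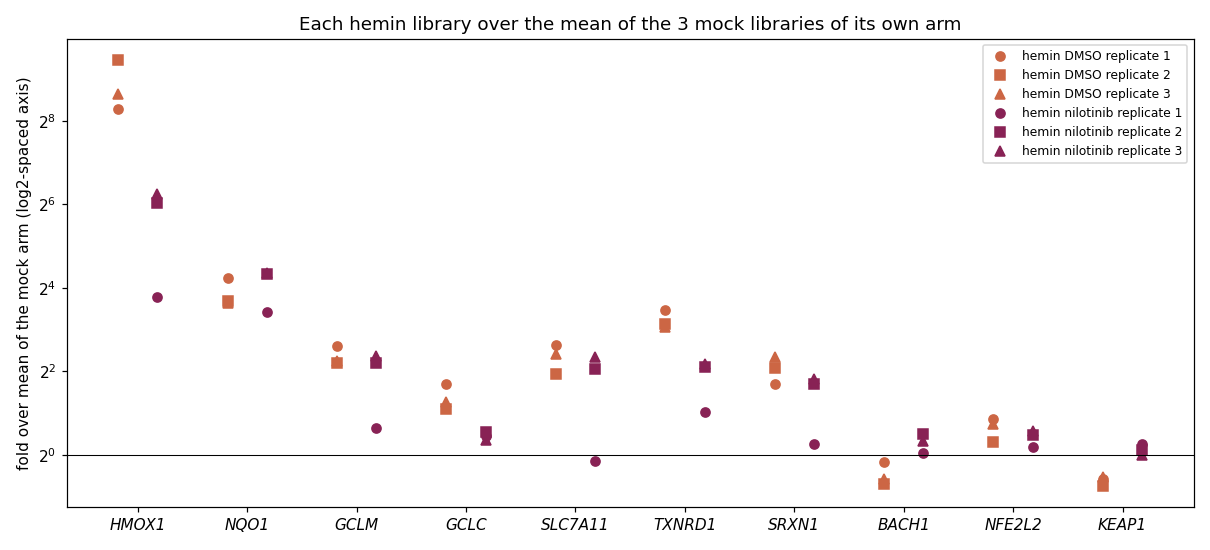
Fold of each hemin library over the mean of the 3 mock libraries of its own arm, on a log2-spaced axis, for the 10 genes, with hemin DMSO and hemin nilotinib in separate colours and a shape for each replicate. Hemin nilotinib replicate 1 gave 0.902 for SLC7A11, 1.56 for GCLM, 2.04 for TXNRD1 and 1.19 for SRXN1, whereas replicates 2 and 3 gave 4.13 and 5.09, 4.58 and 5.12, 4.31 and 4.52, and 3.26 and 3.51.

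Hemin nilotinib replicate 1 thus responded less than replicates 2 and 3 for 6 of the 7 targets. For HMOX1, replicate 1 of hemin nilotinib was 13.8-fold over the mean of its mock arm, and replicates 2 and 3 were 65.2-fold and 75.6-fold over it. For NQO1 the folds were 10.8, 20.3 and 20.6, and the 3 values of hemin DMSO (18.9, 12.9 and 12.5) lay between the first and the other 2. For GCLC the 3 libraries gave 1.36, 1.46 and 1.29, with replicate 1 in the middle. HMOX1, TXNRD1 and GCLC had lower folds in every hemin nilotinib library than in any hemin DMSO library, whereas for GCLM the folds of replicates 2 and 3 lay within or near the range of hemin DMSO, 4.61 to 6.08.

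Among the regulators, BACH1 (ENSG00000156273, chromosome 21 from 29194071 to 29630751) measured 92.4, 109.6 and 116 CPM in mock DMSO, 157, 183 and 179 in mock nilotinib, 95.0, 65.8 and 71.0 in hemin DMSO, and 178, 243 and 218 in hemin nilotinib. Every nilotinib library was above every DMSO library. Nilotinib raised BACH1 by 0.70 (SE 0.16, edgeR adjusted p = 0.00192) without hemin and by 1.46 (SE 0.16, edgeR adjusted p = 9.62e-07) with hemin. With hemin the BACH1 mRNA fell by 0.46 (SE 0.16, edgeR adjusted p = 0.0226) in the DMSO arm, although hemin DMSO replicate 1 lay within the mock libraries. That call was lost without mock DMSO replicate 2 or 3 and without hemin DMSO replicate 2 or 3, at edgeR adjusted p-values of 0.0581, 0.0597, 0.0953 and 0.0945. In the nilotinib arm the change was 0.30 (SE 0.16, edgeR adjusted p = 0.284), and the difference between the arms, 0.76 (SE 0.22), was called (edgeR adjusted p = 0.0176).

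NFE2L2 (ENSG00000116044, chromosome 2 from 177227595 to 177392697), the gene of NRF2 itself, moved opposite to BACH1 with nilotinib in either state and with hemin in the DMSO arm. With hemin in the nilotinib arm the changes of both genes were positive and neither was called. It measured 80.1, 87.6 and 87.1 CPM in mock DMSO, 45.1, 50.3 and 49.3 in mock nilotinib, 155, 104 and 143 in hemin DMSO, and 55.3, 67.5 and 72.2 in hemin nilotinib, and every DMSO library was above every nilotinib library. Nilotinib lowered NFE2L2, with changes of -0.82 (SE 0.15, edgeR adjusted p = 3.17e-04) without hemin and -1.04 (SE 0.15, edgeR adjusted p = 1.42e-05) with it. Hemin raised it by 0.66 (SE 0.15, edgeR adjusted p = 0.00131) in the DMSO arm. In the nilotinib arm its change of 0.43 (SE 0.15) missed the threshold (edgeR adjusted p = 0.0971), with separate libraries, and was called in the paired fit of these 6 libraries (edgeR adjusted p = 0.0389) and without hemin nilotinib replicate 1 (0.53, edgeR adjusted p = 0.0231). The hemin responses of NFE2L2 in the arms differed by -0.23 (SE 0.21, edgeR adjusted p = 0.438), which was not called. Of its exon bases 17.6% also belong to AC019080.1 on the same strand, a gene with means of 13.0 and 5.34 CPM in mock DMSO and hemin DMSO and of 12.3 and 10.8 CPM in mock nilotinib and hemin nilotinib.

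KEAP1 (ENSG00000079999, chromosome 19 from 10486120 to 10503741) measured 103, 123 and 124 CPM in mock DMSO, 129, 136 and 135 in mock nilotinib, 77.8, 69.4 and 80.8 in hemin DMSO, and 160.1, 145 and 133 in hemin nilotinib. Hemin lowered it without nilotinib, with a change of -0.62 (SE 0.12, edgeR adjusted p = 4.98e-04), and gave 0.13 (SE 0.12, edgeR adjusted p = 0.576) with nilotinib, where the libraries overlapped. The difference, 0.75 (SE 0.17), was called (edgeR adjusted p = 0.00426). Nilotinib raised KEAP1 under hemin by 0.94 (SE 0.12, edgeR adjusted p = 5.68e-06), and without hemin it gave 0.20 (SE 0.12, edgeR adjusted p = 0.206), which upper-quartile factors called at 0.31 (edgeR adjusted p = 0.0356). The nilotinib effect on KEAP1 mRNA was thus called with hemin and not without it, and the test of that difference is the one just given.

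**Figure D4:**
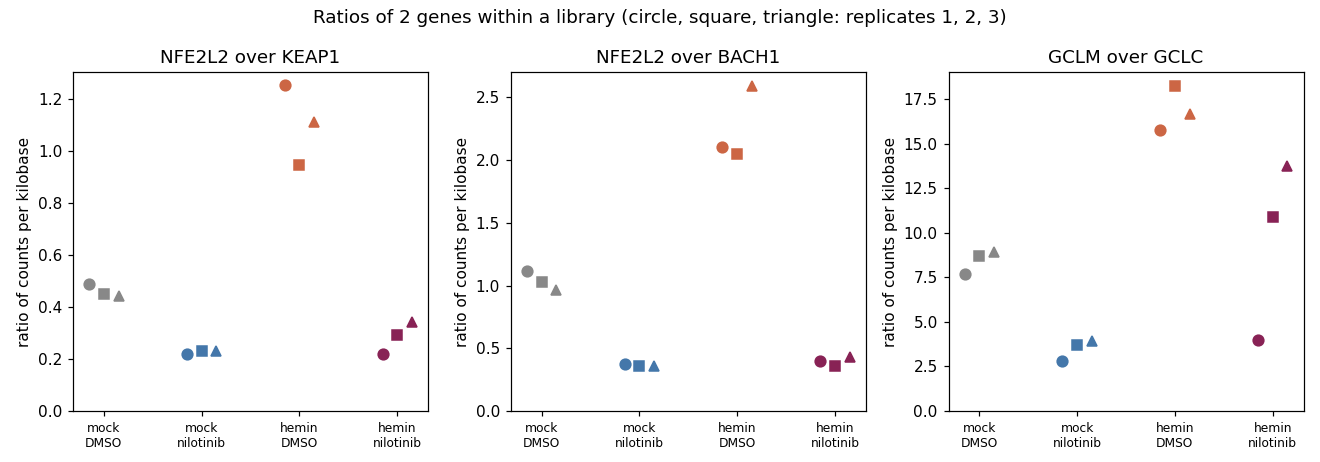
Ratios of 2 genes within each library, from counts per kilobase, for NFE2L2 over KEAP1, NFE2L2 over BACH1 and GCLM over GCLC, with a symbol for each replicate and axes from 0. NFE2L2 over BACH1 was 2.05 to 2.59 in hemin DMSO and at most 0.427 in both nilotinib groups, and mock DMSO lay between them, from 0.966 to 1.12.

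The mRNA of the activator was set against that of each antagonist as a ratio within each library, which does not depend on the scaling of libraries. The proteins were not measured. NFE2L2 over BACH1 was 1.12, 1.03 and 0.966 in mock DMSO, 0.372, 0.355 and 0.356 in mock nilotinib, 2.10, 2.05 and 2.59 in hemin DMSO, and 0.402, 0.359 and 0.427 in hemin nilotinib. NFE2L2 over KEAP1 was 0.489, 0.449 and 0.443 in mock DMSO, 0.220, 0.232 and 0.230 in mock nilotinib, 1.25, 0.946 and 1.11 in hemin DMSO, and 0.217, 0.292 and 0.340 in hemin nilotinib. Both ratios were highest in hemin DMSO and next in mock DMSO, and both nilotinib groups lay under all DMSO libraries and overlapped each other. The ratios are a description and were not tested.

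The order of the genes by level per kilobase changed with hemin. The length used is that of all annotated exon bases of a gene, so ranks between genes also depend on the annotation. The place of SRXN1 is uncertain because of the shared exon bases given above. In mock DMSO, KEAP1 (31.0 CPM per kilobase) and TXNRD1 (30.3) overlapped at the top, followed by GCLM (24.5), SLC7A11 (16.6), NFE2L2 (14.2) with BACH1 (13.8) overlapping it, NQO1 (9.96), GCLC (2.90), SRXN1 (2.17) and HMOX1 (0.0427). In hemin DMSO, TXNRD1 (287) stood alone at the top, above NQO1 (147) with GCLM (126) overlapping it, SLC7A11 (84.8), NFE2L2 (22.4), KEAP1 (20.2) and HMOX1 (20.1), and BACH1 (10.01), SRXN1 (9.10) and GCLC (7.56). The last 3 overlapped from neighbour to neighbour, as did NFE2L2, KEAP1 and HMOX1. In mock nilotinib KEAP1 (35.5) stood alone at the top, and BACH1 (22.4), TXNRD1 (22.2) and GCLM (20.8) overlapped below it. In hemin nilotinib the neighbours overlapped from TXNRD1 (80.4) down to BACH1 (27.6).

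The 10 genes were then set beside 71 other genes of the pathway in 7 lists, of which 70 were tested. Hemin without nilotinib raised 38 of them and lowered 10, beside 25.7% and 27.8% of all genes, with a median log2 fold change of 0.46 against -0.05 over all genes. With nilotinib it raised 20 and lowered 2, beside 3.52% and 2.28%, with a median of 0.18 against 0.03, and these 22 calls became 28 without hemin nilotinib replicate 1. They became 12 without mock nilotinib replicate 2 or 3 or hemin nilotinib replicate 2, and 14 without hemin nilotinib replicate 3. Nilotinib under hemin raised 20 and lowered 36, beside 32.4% and 31.8% of all genes, with a median of -0.51 against 0.02. Without hemin it raised 20 and lowered 26, beside 20.7% and 21.8%, with a median of -0.19 against 0.00. The interaction passed for 24, 7 positive and 17 negative, where 30.1% of all genes passed, 17.1% positive and 13% negative. The median was -0.40 against 0.06. The genes named below are among the largest called changes of their list in a comparison.

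In the list of quinone and carbonyl reduction, the enzymes nearest in role to NQO1, hemin raised 9 of 10 genes without nilotinib and 6 with it, and lowered none. Beside this list and the next, hemin raised 25.7% and lowered 27.8% of all genes without nilotinib, and raised 3.52% and lowered 2.28% with it. AKR1C1, an aldo-keto reductase, rose by 2.76 (from a mean of 158 to 1071 CPM) and by 1.92 (from 88.8 to 336 CPM), or 2.26 without hemin nilotinib replicate 1. AKR1B10, another aldo-keto reductase, rose from almost no reads, with 46 against 1 count without nilotinib and 57 against 2 counts with it, ratios of 66.5 (95% exact interval 11.4 to 2684) and 27.1 (7.17 to 229). Its call with nilotinib was lost without mock nilotinib replicate 2 or 3 or hemin nilotinib replicate 2 or 3. Among other classic NRF2 targets, hemin raised OSGIN1, an oxidative stress induced growth inhibitor, by 6.18 without nilotinib and 6.56 with it (6.94 without hemin nilotinib replicate 1), from 8.64 to 627 CPM and from 4.31 to 409 CPM, which was larger than for any of the 10 genes except HMOX1 without nilotinib. In that list 5 of 10 genes rose and 2 fell without nilotinib, and 4 rose and 1 fell with it. ABCC2, an export pump for glutathione conjugates, rose by 4.95 without nilotinib, and under hemin nilotinib lowered it, with a change of -3.27.

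Of the 11 genes for glutathione supply and use, hemin raised 6 and lowered 1 without nilotinib and raised 2 with it. Beside the hemin counts of this paragraph, 25.7% of all genes rose and 27.8% fell without nilotinib, and 3.52% rose and 2.28% fell with it. GSR, glutathione reductase, rose by 2.13 and by 1.73, the latter 2.01 without hemin nilotinib replicate 1. CHAC1, which degrades glutathione, rose with hemin by 1.57 without nilotinib (edgeR adjusted p = 0.0457) and by 2.80 with it (edgeR adjusted p = 0.0316), from 2.69 to 18.8 CPM. The first call was lost with any 1 of its 6 libraries left out, and the second without mock nilotinib replicate 2 or 3 or hemin nilotinib replicate 2 or 3. The second value was 3.36 without hemin nilotinib replicate 1, whose CHAC1 level of 0.719 CPM was below every mock nilotinib library. Nilotinib lowered 9 of these 11 under hemin and raised none, beside 31.8% and 32.4% of all genes. Without hemin it lowered 7 and raised 1, beside 21.8% and 20.7%. The falls were led under both conditions by CHAC1 (-2.89, or -2.31 without hemin nilotinib replicate 1, and -4.11) and MGST1 (-2.56 and -2.05), a microsomal glutathione transferase. In the list for NADPH supply hemin raised 3 of 7 genes without nilotinib, and with it raised 2 and lowered 1. ME1, malic enzyme, rose by 3.74 and 1.26, the latter 1.49 without hemin nilotinib replicate 1, and the difference of -2.49 was called. Of the 10 thioredoxin and peroxiredoxin genes hemin raised 5 without nilotinib, and with it TXN (0.98), thioredoxin itself, and PRDX1 (0.85), a peroxiredoxin that sulfiredoxin repairs. Without nilotinib the largest rises were those of TXNIP, an inhibitor of thioredoxin, by 1.89 with overlapping libraries, and of PRDX1 by 1.68. The TXNIP value was 1.09 without hemin DMSO replicate 1. Nilotinib raised TXNIP without hemin from 35.5 to 1465 CPM, a log2 fold change of 5.37.

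In the list of heme and iron handling the median with hemin was -0.40 without nilotinib and 0.04 with it. Hemin without nilotinib raised 2 of its 10 genes, both ferritin subunits (FTL by 2.68 and FTH1 by 1.32), and lowered 5 (all genes 25.7% and 27.8%), among them SLC40A1, the iron exporter ferroportin (-1.74), and HMOX2, the constitutive heme oxygenase (-0.79). With nilotinib it raised FTL alone, by 2.10, and FTH1, at 0.60, was called at 0.69 without hemin nilotinib replicate 1. Nilotinib raised 6 of these genes with hemin and 6 without it, beside 32.4% and 20.7% of all genes. These rises were led by ABCG2, a porphyrin exporter (4.08 without hemin and 3.91 with it). The last list held the partners and degradation factors of the cap'n'collar proteins. There hemin without nilotinib raised 8 of 12 genes and lowered 2 (all genes 25.7% and 27.8%), and with nilotinib raised 3 (all genes 3.52%). MAFF, a small MAF protein, rose by 2.24 and by 1.27, and the latter call was kept only without hemin nilotinib replicate 1 (1.67) when a library was left out. NFE2, the erythroid relative of NRF2, fell by 2.84 without nilotinib and gave -0.40 with it, which was not called but was called at -0.58 without hemin nilotinib replicate 1, and nilotinib raised it by 3.48 under hemin, the opposite of NFE2L2.

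**Figure D5:**
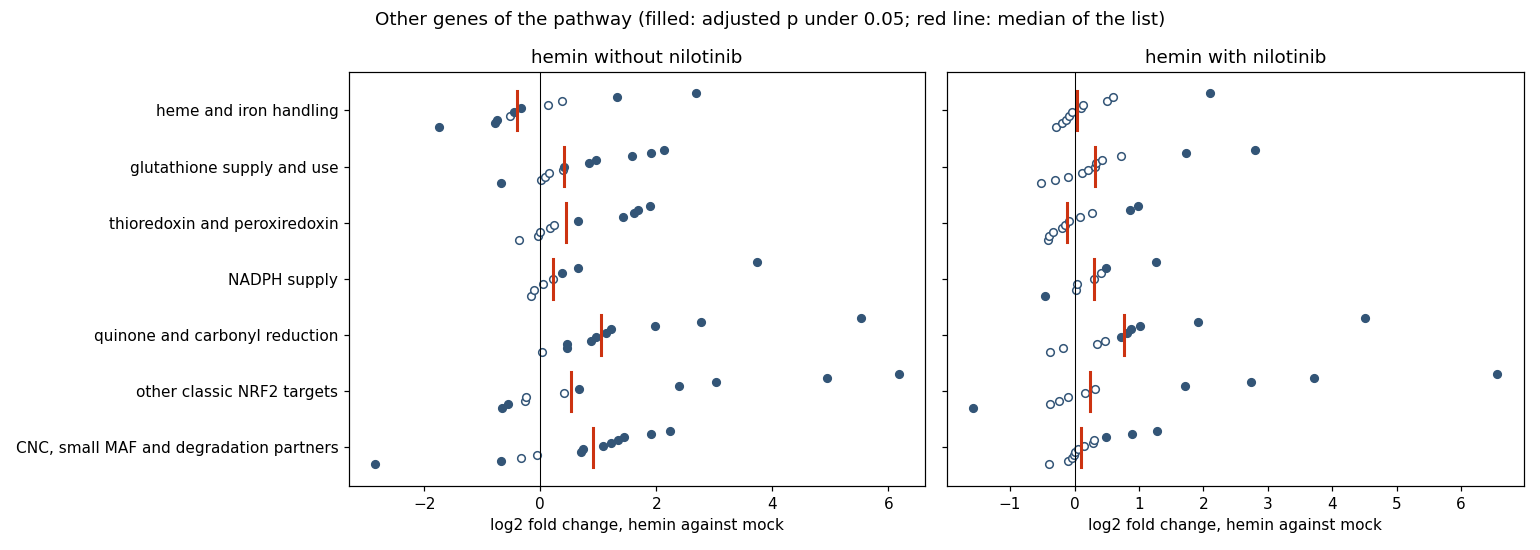
Log2 fold change of each of the 70 tested pathway genes with hemin, without nilotinib on the left and with nilotinib on the right, by list; filled points passed an adjusted p of 0.05 and the red line marks the median of the list. The medians of quinone and carbonyl reduction, 1.05 and 0.77, lie to the right of 0 in both panels, and that of heme and iron handling lies at -0.40 and 0.04.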

How the data were processed

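RNA-seq of K562 cells gave 12 libraries in 4 groups of 3 replicates, grouped by their titles. The authors deposited raw read counts per gene, made from paired-end reads by their sequencing service, and the submitters' processing notes name GRCh38.p12, DESeq2 and DESeq. The aligner, the counter and its strand setting are not given in the sources used here. FPKM tables were not used here.

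Tests used edgeR 4.0.16 under R 4.3.3. Its filterByExpr (minimum count 10, minimum total 15) kept 20821 of 58735 genes, TMM factors scaled them, and 1 model with a mean per group over all 12 libraries gave quasi-likelihood tests, two-sided, with Benjamini-Hochberg adjustment and a threshold of 0.05. The code of this fit was run on simulated counts with known changes in a small set of genes and the same spread setting for every gene. These data differ from that setting, so the run says nothing of error rates here. SE is the size of the log2 fold change over the root of the F statistic. HMOX1 and AKR1B10, with few reads in mock libraries, also have ratios of summed counts with exact binomial intervals (95%). Both genes passed the filter only through hemin libraries. Depth, 33457078 to 50506990 counts, sets the counting error, and PCR reads are not independent molecules. Replicates of a group differed by 13.7 to 252 times the counting variance (chi-square over degrees of freedom), so none looked like a library deposited again.

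The 10 genes, the 7 pathway lists and the alternatives were chosen with earlier results of these data known. Of each list, the text names at most 2 genes with the largest called rise and 2 with the largest called fall in a comparison, and for HMOX1, BACH1 and NFE2L2 the 4 protein-coding genes (mean of at least 100 counts per library) most like each over the 12 libraries. Positions are from GENCODE 29, whose starts and ends match 58724 of the 58735 genes, and promoter windows are from RefSeq.

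Alternatives changed 1 choice at a time: DESeq2 1.42.0, RLE or upper-quartile factors, library totals only, all genes with at least 1 count, only the 6 libraries compared, a block for the replicate number, and leaving out each library. The numbers come from the titles. Deviations of same-numbered libraries from their group means correlated above 0.1 in every pair only between mock nilotinib and hemin nilotinib (0.199 to 0.263), so only these were treated as pairs, and a fit of those 6 libraries with the block was added after seeing the data, as was leaving out each library for single pathway genes. Figures were drawn with matplotlib 3.10.9 in Python 3.11.15.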

Additional observations from a re-analysis of the deposited data

Results flagged for a closer look

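The hemin responses with and without nilotinib differed, by the interaction term of the fit and edgeR's adjusted p, for 4 of the 10 genes. Over all genes 30.1% passed, 17.1% with a positive and 13% with a negative difference, so the count alone does not set the 10 genes apart. The difference, with nilotinib minus without it on the log2 scale, was -1.39 for TXNRD1 and -0.93 for GCLC, with responses of 1.86 and 0.46 in the nilotinib arm against 3.24 and 1.38 in the DMSO arm. It was 0.76 for BACH1 and 0.75 for KEAP1, which gave 0.30 and 0.13 in the nilotinib arm and fell by 0.46 and 0.62 in the DMSO arm. All 4 calls were kept under each of the alternatives tried, up to 18 per gene, the fit without hemin nilotinib replicate 1 among them. The narrowest was BACH1, whose highest adjusted p over the edgeR and DESeq2 alternatives was 0.0498.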

How the results depend on the processing

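Of the alternative values for single genes among the 10, 675 kept their direction and side of the threshold, 23 lost the call, 10 gained it and 1 turned. The number called among the 10 ranged from 7 to 8 for nilotinib with hemin, 4 to 6 without hemin, 9 to 10 for hemin without nilotinib and 4 to 5 for the interaction. Hemin with nilotinib was the least stable comparison: 6 of the 10 genes were called, 3 in the 6 libraries alone, and 4 to 7 with a library left out. Over all genes it gave 1208 calls, 1944 with DESeq2, 1987 with all genes of at least 1 count, 183 in the 6 libraries alone, and from 213 (mock nilotinib replicate 2 left out) to 2793 (hemin nilotinib replicate 1 left out). Leaving out mock nilotinib replicate 3 gave 234, and leaving out hemin nilotinib replicate 2 gave 286. SRXN1 under nilotinib with hemin ranged from -0.55 to 0.0573 with a library left out and was not called in any. The GCLM call under nilotinib with hemin was also lost with upper-quartile factors (-0.68), library totals (-0.50) and the 6 libraries alone (-0.67), and the BACH1 call with hemin alone was lost with upper-quartile factors (-0.34). With all genes tested, SLC7A11 and TXNRD1 were called lower under nilotinib without hemin (-0.87 and -0.48). In hemin with nilotinib, GCLM was not called in the 6 libraries alone (adjusted p = 0.0530, edgeR).

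With the replicate number as a block over all 12 libraries, no call among the 10 genes changed, and hemin with nilotinib gave 1587 genes. In the 6 libraries with the block there were 1600 genes and 7 of the 10, with GCLC and NFE2L2 gained and SLC7A11 lost. The causes of these changes were not tested. Depth limits HMOX1 in the mock libraries, where at most 7 counts were read.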

Other observations

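The genes most like 3 of the 10 over the 12 libraries were ranked by the root mean square difference in log2 CPM after each gene was centred on its own mean, among 10933 genes, and this is a description only, since all points share the 12 libraries. For HMOX1, whose log2 level had an SD of 3.82, they were ZFAND2A (0.76), CRYAB (0.81), HSPA1A (0.83) and HSPA1B (0.85), of which ZFAND2A encodes a zinc finger protein of the arsenite response, CRYAB a small heat-shock protein and the other 2 inducible HSP70. ZFAND2A had means of 7.01 CPM in mock DMSO, 7.15 in mock nilotinib, 1385 in hemin DMSO and 82.2 in hemin nilotinib, and CRYAB had 1.04, 1.18, 249 and 5.94. HSPA1A and HSPA1B share 63.2% and 70.0% of their 150-base words with other genes, each other and AL671762.1 among them, so their separate counts are uncertain. Without hemin the nilotinib effect was 0.03 for ZFAND2A and 0.17 for CRYAB, neither called (edgeR adjusted p = 0.968 and 0.843).

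For BACH1 (SD 0.63) the nearest were RHBDD1 (0.11), C11orf71 (0.12), RETREG3 (0.14) and SH3BP5L (0.14). RHBDD1, a rhomboid protease, had means of 43.6, 63.1, 27.2 and 74.4 CPM in the same order of groups. For NFE2L2 (SD 0.58) they were SEC61A1 (0.08), CNST (0.14), GPR107 (0.14) and SPIRE1 (0.14). SEC61A1, the channel of the endoplasmic reticulum translocon, had means of 316, 184, 474 and 251 CPM.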
